A study of Mus musculus with 12 samples.

Results

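The chemokines that attract monocytes and the receptors that read them were followed through cyclophosphamide (CPA) treatment of E0771 mammary tumors. The genes are 5 ligands and 2 receptors, listed in the deposited table as CCL2, CCL7, CCL8, CCL12, CX3CL1, CCR2 and CX3CR1 and written here with their mouse symbols, 7 of 24197 rows in all, and were chosen by name. All 7 passed the filter on low reads, beside 14484 genes tested in all. CPA is a DNA-alkylating prodrug that the liver activates, and E0771 is a mammary carcinoma line of the mouse, here implanted in the fat pad of the mammary gland of female C57/BL6N mice. Treated tumors were collected 1, 2, 3 or 6 days after a CPA dose, or on day 12 after 2 doses with the second given on day 6, and vehicle tumors received no CPA. The labels give 130 mg/kg CPA, a dose that is stated differently elsewhere in the study. Mice of the vehicle group and of days 1 to 3 were 9 to 10 weeks old, those of day 6 were 11 weeks old and those of day 12 were 12 weeks old, so age cannot be told apart from treatment day on the late days. Each group has 2 libraries of polyA RNA, and each library is a pool of RNA from 2 or 3 tumors, so the spread between libraries is that between pools and not between single tumors.

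The Ccr2 axis brings classical monocytes out of the bone marrow and into inflamed tissue. Ccl2, Ccl7 and Ccl12 are ligands of Ccr2 in the mouse, and Ccl8 is known in the mouse as a ligand of Ccr8. Cx3cl1 (fractalkine) is the single ligand of Cx3cr1, made as a membrane-bound protein that can be shed, and Cx3cr1 marks patrolling monocytes and many tissue macrophages. In bulk tumor RNA, fewer cells of a type and less RNA per cell cannot be told apart.

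The deposited table gives 1 FPKM value (fragments per kilobase of exon, scaled to a common number of mapped fragments) per group, which is printed here as the authors' mean. Whole read numbers of each of the 2 libraries were recovered from these values, which gives each library its own FPKM, called library a (the larger library total in the FPKM scaling) and b. Recovered reads per library numbered 15773128 to 21058393, apart from library b of day 12 with 8413178. For rows with 1000 or more reads in a group, 93.8% to 100% of rows agreed within 2-fold between the 2 libraries, lowest on day 12. For 1 day 1 library the title names CPA while its treatment label names vehicle, so the day 1 values rest on that title being right. Of the epithelial markers, Krt8, a luminal keratin, was at 125 FPKM in vehicle tumors, while Krt18, its usual partner, was at 0.518 FPKM and Epcam at 0.189 FPKM. On day 12 adipocyte genes were abundant, with summed FPKM of the 7 adipocyte markers at 958 in library a and 9459 in library b, against 45.4 to 104 in vehicle tumors. The 7 neutrophil markers in the table summed to 568 FPKM in library a and 29.96 FPKM in library b on day 12, against 2.33 to 3.43 FPKM in vehicle tumors. These values touch every day 12 result below, and their part in it was not tested.

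Ccl2, Ccl7, Ccl12 and Ccl8 lie within 81.2 kb of mouse chromosome 11 (mm9, the build of the deposited table): Ccl2 at chr11:81849078-81850954, Ccl7 at chr11:81859213-81861025, Ccl12 at chr11:81915346-81916901 and Ccl8 at chr11:81928686-81930301, with Ccl11 between Ccl7 and Ccl12. Ccr2 is at chr9:124016921-124023879, Cx3cr1 at chr9:119957800-119977414 and Cx3cl1 at chr8:97296079-97306326. RefSeq promoter windows (250 bases before to 50 after the start, GRCm38.p6) were held for 5 of the 7 genes, not for Ccl2 or Ccl7. Those of Ccl8, Ccl12 and Cx3cl1 are shown because Ccl8 and Ccl12 are neighbours whose levels were highest on day 12 while Cx3cl1 peaked on day 3. In capitals is the TATAAA that each window holds, and in Cx3cl1 also a GC box.
Ccl8, chr11:82114935-82115234: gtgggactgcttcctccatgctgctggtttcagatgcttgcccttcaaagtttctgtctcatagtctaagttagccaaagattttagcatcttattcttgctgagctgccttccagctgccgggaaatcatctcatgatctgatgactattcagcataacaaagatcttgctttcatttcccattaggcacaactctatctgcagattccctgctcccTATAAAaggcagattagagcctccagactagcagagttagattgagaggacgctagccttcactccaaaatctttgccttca
Ccl12, chr11:82101595-82101894: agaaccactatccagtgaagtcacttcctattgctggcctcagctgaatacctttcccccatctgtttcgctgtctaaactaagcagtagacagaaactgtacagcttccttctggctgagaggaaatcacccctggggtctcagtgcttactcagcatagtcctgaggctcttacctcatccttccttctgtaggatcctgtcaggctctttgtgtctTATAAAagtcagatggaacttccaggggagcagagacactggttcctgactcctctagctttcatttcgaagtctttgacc
Cx3cl1, chr8:94771930-94772229: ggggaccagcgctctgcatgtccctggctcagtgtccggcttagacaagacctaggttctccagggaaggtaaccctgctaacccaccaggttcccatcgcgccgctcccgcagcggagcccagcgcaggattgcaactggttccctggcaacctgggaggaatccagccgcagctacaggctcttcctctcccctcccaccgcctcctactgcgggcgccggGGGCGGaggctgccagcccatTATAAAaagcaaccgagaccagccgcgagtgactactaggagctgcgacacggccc
The windows of Ccl8 and Ccl12 hold TATAAA starting 32 and 31 bases before the start, and that of Cx3cl1 starts 6 bases before it. Across 32841 windows of the same length, 13.6% hold TATAAA on either strand. This motif was chosen after the windows were read. No window of the 5 genes held the letters searched for the interferon-stimulated response element (ISRE, in 3.44% of all windows), the gamma-activated site (TTCNNNGAA, 8.3%), AP-1 (TGANTCA, 7.81%) or NF-kB (8.46%), both strands counted. A GC box (GGGCGG, 35.7%) stood in Cx3cl1 and a CCAAT box (CCAAT, 37.4%) in Cx3cr1.

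Ccl2 rose on days 2, 3 and 12 and was highest on day 3. It encodes MCP-1, the main ligand of Ccr2. The authors' means were 47.5, 51.3, 111, 151, 67.9 and 77.7 FPKM in vehicle and on days 1, 2, 3, 6 and 12. Its 2 libraries read 49.7 and 45.4 FPKM in vehicle, 56.5 and 46.1 on day 1, 96.6 and 126 on day 2, 147 and 154 on day 3, 62.4 and 73.4 on day 6, and 90.1 and 65.2 on day 12. Both libraries of days 2, 3, 6 and 12 lay above both vehicle libraries, and those of day 1 overlapped them. The share of all genes separated in this way was not counted. Statements on the overlap of libraries, here and below, therefore only describe the values and are no test. The fold was 3.16 on day 3 (FPKM plus 0.1) and 1.63 on day 12. In limma, fitted to log2 CPM (reads scaled to the library's total) of all 12 libraries, the difference from vehicle was 1.22 ± 0.19 (SE) on day 2 (adjusted p = 0.039), 1.66 ± 0.19 on day 3 (adjusted p = 0.0032), 0.53 ± 0.19 on day 6 (adjusted p = 0.15) and 0.74 ± 0.19 on day 12 (adjusted p = 0.0088).

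Ccl7, which encodes MCP-3, rose on days 2, 3 and 12, and was highest on day 12. Its authors' means were 45.6, 43.8, 100.2, 125, 68.9 and 139.7 FPKM in the same order. The libraries read 44.6 and 46.5 FPKM in vehicle, 47.8 and 39.9 on day 1, 82.4 and 118 on day 2, 136 and 114 on day 3, 62.5 and 75.2 on day 6, and 131 and 148 on day 12. As with Ccl2, the groups from day 2 on did not overlap vehicle. The limma difference was 1.12 ± 0.18 on day 2 (adjusted p = 0.046), 1.45 ± 0.18 on day 3 (adjusted p = 0.0056), 0.60 ± 0.18 on day 6 (adjusted p = 0.083) and 1.67 ± 0.18 on day 12 (adjusted p = 9.4e-05). The ratio of Ccl2 to Ccl7 FPKM lay between 0.976 and 1.35 in every library of vehicle and days 1 to 6, and was 0.687 and 0.440 on day 12.

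Most of these calls changed when a library was left out. On day 2 the Ccl2 call was kept without either day 12 library and lost without any of the other 10, with adjusted p up to 0.294. The Ccl7 day 2 call was lost in 9 of 12 such fits, and kept without day 2 library a or either day 12 library. On day 3, Ccl2 missed the threshold without day 3 library a (adjusted p = 0.065), day 3 library b (0.061) or vehicle library b (0.058), and Ccl7 without day 3 library a (0.11), day 3 library b (0.057), vehicle library a (0.0502) or vehicle library b (0.070). The Ccl2 day 12 call was lost without vehicle library b (adjusted p = 0.053), and that of Ccl7 was kept in all 12. The day 3 difference lay between 1.58 and 1.75 for Ccl2 and between 1.32 and 1.58 for Ccl7 in these fits. A fit on only the libraries of day 2 and vehicle ended both day 2 calls (adjusted p = 0.27 for Ccl2 and 0.37 for Ccl7), and one on only those of day 12 and vehicle ended the Ccl2 day 12 call (0.052). The Ccl7 day 2 call was also lost with median-ratio scaling (0.052) and with a filter of 1 read (0.056). The day 6 difference of Ccl7 passed without either day 2 library (0.041) and in the fit on only day 6 and vehicle (0.031).

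Ccl12 and Ccl8 were called higher than vehicle on days 6 and 12 and were highest on day 12. Ccl12 encodes the mouse chemokine MCP-5. Its authors' means were 11.3, 10.0, 15.3, 20.4, 19.6 and 27.6 FPKM in vehicle and on days 1, 2, 3, 6 and 12. Its libraries read 12.1 and 10.4 FPKM in vehicle, 10.2 and 9.86 on day 1, 15.1 and 15.4 on day 2, 23.5 and 17.3 on day 3, 20.4 and 18.7 on day 6, and 29.1 and 26.1 on day 12. The libraries of day 3 and day 6 overlapped, and those of day 12 lay above all others. Against vehicle, limma gave 0.84 ± 0.19 on day 3 (adjusted p = 0.087, or 0.047 without either day 12 library), 0.81 ± 0.19 on day 6 (adjusted p = 0.025) and 1.35 ± 0.19 on day 12 (adjusted p = 0.00034). The day 6 call was lost without day 6 library a (adjusted p = 0.21), day 6 library b (0.13) or vehicle library b (0.22), and the day 12 call was kept in all 12 fits that left out 1 library.

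Ccl8, which encodes MCP-2, had the largest day 12 difference of the 7 genes. Its authors' means were 53.7, 60.2, 84.8, 87.0, 211 and 916 FPKM. The libraries read 58.4 and 48.9 FPKM in vehicle, 64.7 and 55.6 on day 1, 91.3 and 78.2 on day 2, 105 and 69.4 on day 3, 232 and 191 on day 6, and 693 and 1138 on day 12. The day 2 and day 3 differences of 0.66 ± 0.25 and 0.67 ± 0.25 missed the threshold (limma, adjusted p = 0.51 and 0.40). Every library of days 2 to 12 lay above both vehicle libraries. The difference was 1.99 ± 0.25 on day 6 (adjusted p = 0.0021) and 4.11 ± 0.25 on day 12 (adjusted p = 8.3e-06), which is 17.2-fold higher. With 1 library left out the day 12 difference lay between 3.75 and 4.46, and both calls were kept in all 12 fits that left out 1 library. The higher day 12 value is that of library b. That library also had the more abundant adipocyte genes, the less abundant neutrophil genes and the fewer reads. Their part in the Ccl8 value was not tested.

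In vehicle tumors the 7 genes stood in the order Ccl8, Ccl2, Ccl7, Ccl12, Ccr2, Cx3cr1 and Cx3cl1 by FPKM, which is a level per length and can be set between genes. The libraries of Ccl8 and Ccl2, of Ccl2 and Ccl7, and of Cx3cr1 and Cx3cl1 overlapped there, and other neighbours in that order did not. On day 3 the order was Ccl2, Ccl7, Ccl8, Ccl12, Cx3cl1, Ccr2 and Cx3cr1, with only Cx3cl1 and Ccr2 overlapping. On day 12 it was Ccl8, Ccl7, Ccl2, Ccl12, Ccr2, Cx3cr1 and Cx3cl1, and no neighbours overlapped.

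**Figure D1:**
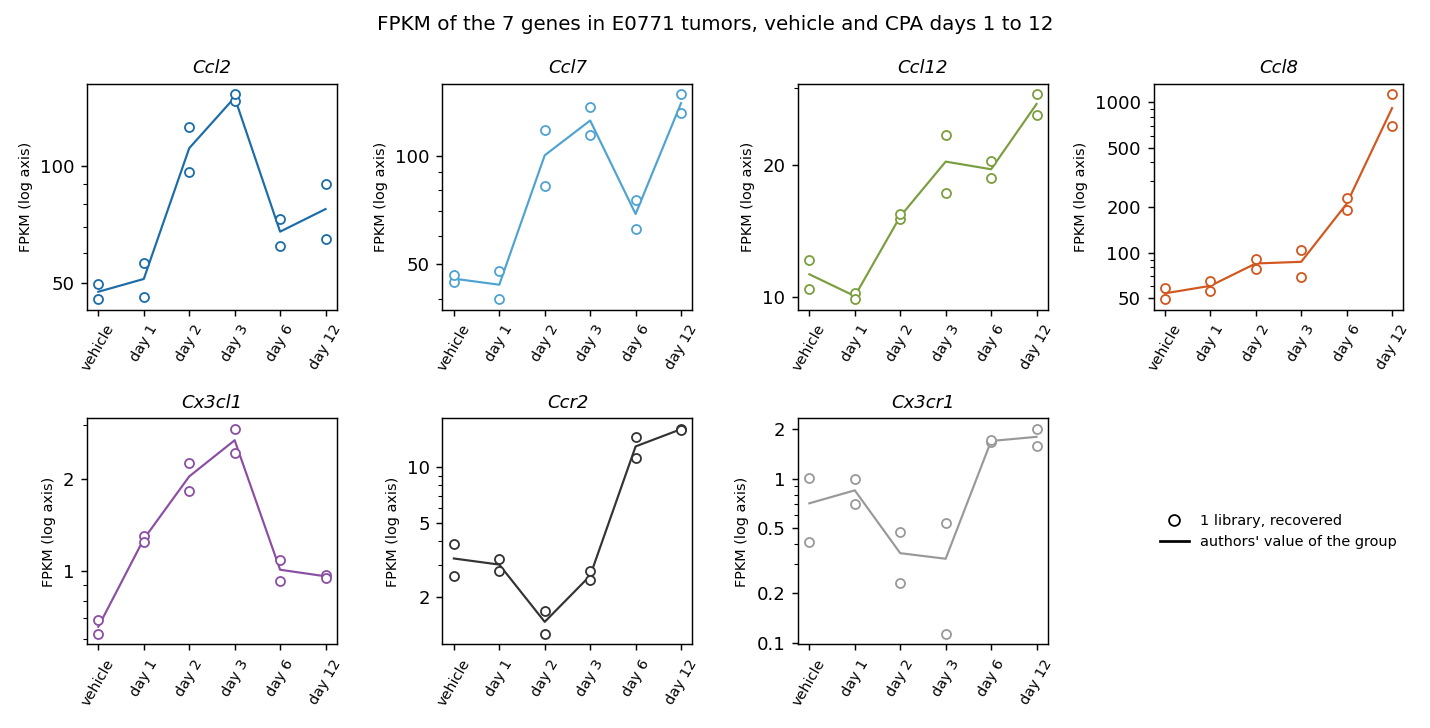
FPKM of each gene (log axis) in vehicle tumors and on CPA days 1, 2, 3, 6 and 12. Open circles are the 2 recovered libraries and lines join the authors' group values. Ccl2, Ccl7 and Cx3cl1 peaked on day 3 within the first cycle, Ccr2 was lowest on day 2, and Ccl8 reached 916 FPKM on day 12.

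Cx3cl1 had the lowest level of the 5 ligands, and rose on days 2, 3 and 12. Its authors' means were 0.658, 1.27, 2.04, 2.68, 1.01 and 0.961 FPKM. The libraries read 0.694 and 0.622 FPKM in vehicle, 1.30 and 1.24 on day 1, 2.25 and 1.83 on day 2, 2.43 and 2.92 on day 3, 0.930 and 1.09 on day 6, and 0.971 and 0.951 on day 12. All 5 treated groups lay above vehicle without overlap. On day 1 the limma difference was 0.98 ± 0.21 (unadjusted p = 0.0007, adjusted p = 0.87), so it did not pass. It was 1.63 ± 0.21 on day 2 (adjusted p = 0.014), 2.02 ± 0.21 on day 3 (adjusted p = 0.0025), 0.63 ± 0.21 on day 6 (adjusted p = 0.12) and 0.60 ± 0.21 on day 12 (adjusted p = 0.034). The day 2 call was lost without either vehicle library (adjusted p = 0.085 without a, 0.16 without b) or either day 2 library (0.059 without a, 0.055 without b), the day 3 call without day 3 library b (0.057), and the day 12 call in 8 of 12 such fits, kept without a day 2 or a day 3 library. The fit on only the 2 groups compared ended the day 2 call (adjusted p = 0.30) and the day 12 call (0.24), and voom weights ended the day 12 call (0.069). Adam10 and Adam17, the proteases known to shed Cx3cl1, missed the threshold on every day and were at 13.7 and 12.8 FPKM on day 3, against 10.9 and 14.0 FPKM in vehicle tumors. Ctss, a cathepsin that can also release it, rose by 1.77 on day 6 (limma log2 difference, adjusted p = 0.0020) and 3.10 on day 12.

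Ccr2, the receptor of Ccl2, Ccl7 and Ccl12, rose on days 6 and 12, and its lowest values were those of day 2. Its authors' means were 3.23, 3.00, 1.48, 2.62, 12.9 and 16.0 FPKM. The libraries read 3.86 and 2.61 FPKM in vehicle, 3.23 and 2.77 on day 1, 1.69 and 1.27 on day 2, 2.76 and 2.47 on day 3, 11.3 and 14.6 on day 6, and 16.1 and 15.9 on day 12. Both day 2 libraries lay below both vehicle libraries, and both day 6 and day 12 libraries above them. The limma difference was -1.11 ± 0.23 on day 2, which missed the threshold (adjusted p = 0.0997, or 0.043 with median-ratio scaling), 2.03 ± 0.23 on day 6 (adjusted p = 0.0016) and 2.39 ± 0.23 on day 12 (adjusted p = 4.8e-05). The late calls were kept in all 12 fits that left out 1 library. The longest stretch shared by any 2 of the 4 Ccl genes was 23 bases.

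Cx3cr1, the receptor of Cx3cl1, passed the test against vehicle on no day and had the largest standard error of the 7 genes, 0.64. Its authors' means were 0.708, 0.850, 0.352, 0.325, 1.70 and 1.80 FPKM. The libraries read 1.00 and 0.413 FPKM in vehicle, 0.706 and 0.993 on day 1, 0.473 and 0.230 on day 2, 0.537 and 0.113 on day 3, 1.68 and 1.72 on day 6, and 1.58 and 2.02 on day 12. The vehicle libraries alone differed by more than 2-fold, and only days 6 and 12 lay clear of them. Against vehicle no day passed the threshold in limma, with 1.41 ± 0.64 on day 6 (adjusted p = 0.28) and 1.52 ± 0.64 on day 12 (adjusted p = 0.070). The day 12 difference passed without vehicle library a (0.0496), day 3 library a (0.023) or day 3 library b (0.022), with voom weights (0.031) and in the fit on only day 12 and vehicle (0.045), and it was 0.86 without vehicle library b and 2.19 without vehicle library a. The lowest value, 0.113 FPKM in day 3 library b, rests on 18 reads.

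**Figure D2:**
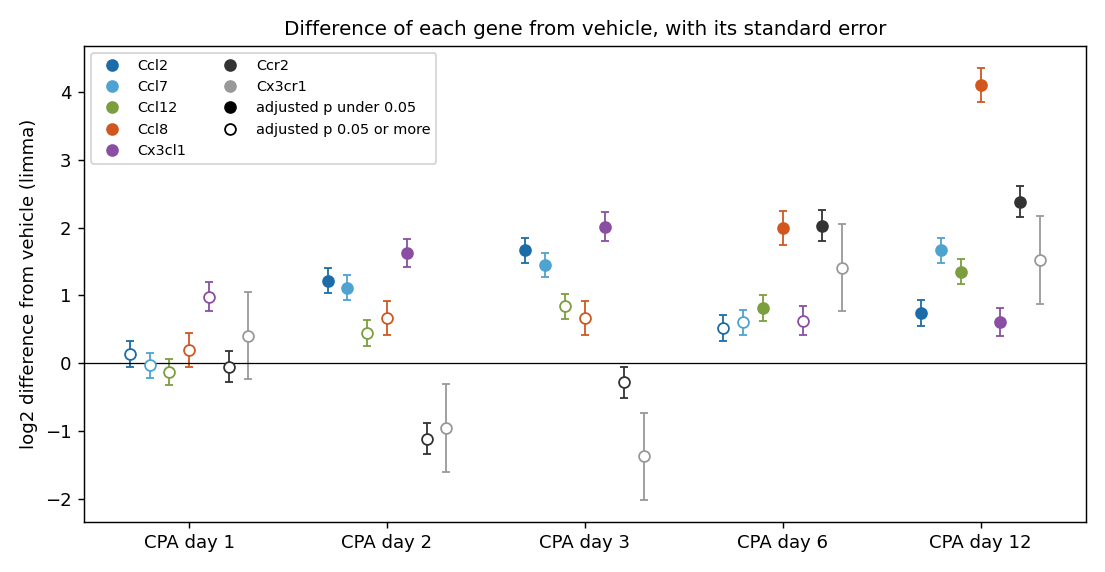
log2 difference of each gene from vehicle (limma) on each CPA day, with its standard error. Filled points have an adjusted p under 0.05. No point is filled on day 1, 3 are filled on days 2, 3 and 6, and 6 on day 12.

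Counted over the 7 genes, limma called 3 higher on day 2 (Ccl2, Ccl7 and Cx3cl1), against 0.131% of the genes tested. The same 3 genes were called on day 3, against 0.545% of genes. On day 6 the 3 called were Ccr2, Ccl8 and Ccl12, against 6.38% of genes. For Ccl12 the difference from vehicle was 0.84 on day 3, not called, and 0.81 on day 6. On day 12 all but Cx3cr1 were called, against 24.7%. None was called lower against vehicle on any day (Ccr2 on day 2 alone was lower at an unadjusted p under 0.05), although Ccr2 was on day 2 with median-ratio scaling. The day 2 count was 0 in the fit on only day 2 and vehicle and without day 2 library b or either vehicle library, and the day 3 count was 0 without day 3 library b and 1 without day 3 library a or vehicle library b. On day 1 limma called 0 genes of the whole table, with or without voom weights, and 619 genes had an unadjusted p under 0.05, of the 7 genes Cx3cl1 alone. Past 2-fold in the FPKM ratio (values plus 0.1, 1 FPKM or more in either group), 3 genes were higher on day 2 (0.766% of genes) and 1, Ccr2, was lower (0.536%). The counts were 3 higher on day 3 (1.45% of genes), 3 on day 6 (7.36%) and 5 on day 12 (16.2%), with none lower. Those of day 6 were Ccl8, Ccr2 and Cx3cr1, and those of day 12 were Ccl7, Ccl8, Ccl12, Ccr2 and Cx3cr1. Cx3cr1 is counted on both days, although limma called it on neither.

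Between day 6 and day 3, limma called 3 genes lower on day 6 (Cx3cl1 by 1.39, Ccl2 by 1.14 and Ccl7 by 0.85 on the log2 scale) and 3 higher (Cx3cr1, Ccr2 and Ccl8). Lower calls were made for 0.608% of all genes and higher calls for 4% of them. Ccr2 was kept without any 1 library, while the Ccl2, Ccl7, Ccl8 and Cx3cl1 calls were lost without either day 6 library or day 3 library b, Ccl7 also without day 3 library a. The Cx3cr1 call was lost without either day 6 library, either day 1 library or day 3 library b, and with a filter of 1 read (0.051). Day 12 against day 6 gave 3 higher calls, Ccl8 by 2.12 ± 0.25 (adjusted p = 0.0017), Ccl7 by 1.06 ± 0.18 (adjusted p = 0.0041) and Ccl12 by 0.53 ± 0.19 (adjusted p = 0.043), against 13.4% of genes. The Ccl12 call was lost without either library of day 1, 6 or 12, and Ccl8 and Ccl7 were kept. In the fit on only days 12 and 6, with 13 genes called higher in the whole table, all 3 calls ended (adjusted p = 0.067 for Ccl8 and Ccl7, 0.097 for Ccl12).

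The share of each gene in the Ccl group differed between days, as a description with no test. Ccl8 took 32.3% to 35.5% of the summed FPKM of Ccl2, Ccl7, Ccl8 and Ccl12 in the vehicle libraries, and 19.6% to 25.4% on day 3. It took 53.3% to 61.5% on day 6 and 73.5% to 82.6% on day 12. Ccl2 took 35.8% to 43.4% on day 3 and 4.73% to 9.55% on day 12, against 30.03% to 30.12% in vehicle tumors. The summed FPKM of the 4 genes was 354 to 412 on day 3, 359 to 377 on day 6 and 944 to 1378 on day 12, against 151 to 165 in vehicle tumors. Ccl2 held the largest share on day 3 and Ccl8 on day 6, while the 2 days' summed values overlapped.

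**Figure D3:**
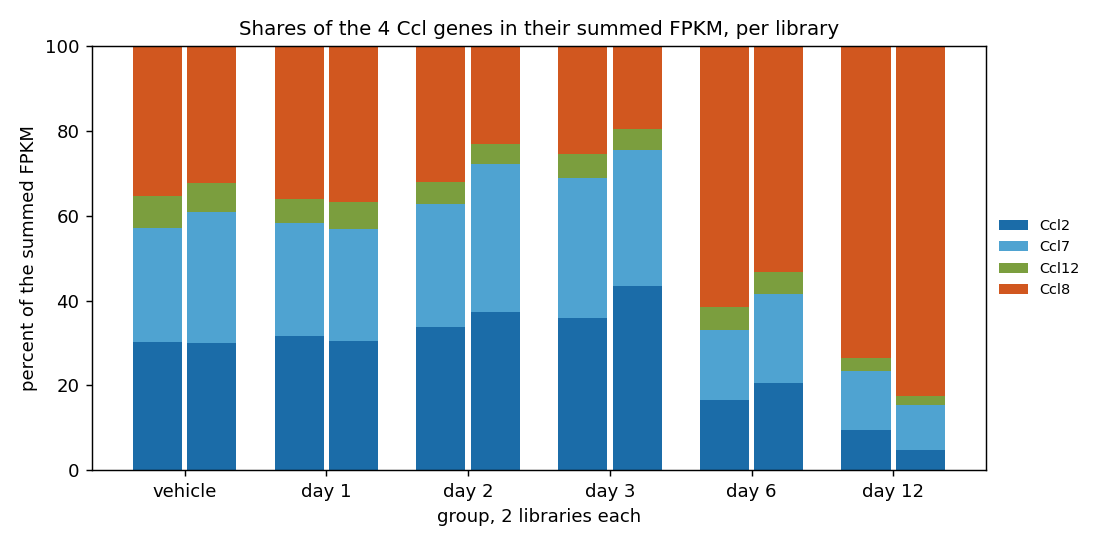
Share of each of 4 Ccl genes in their summed FPKM, 1 bar per library and 2 bars per group. Ccl2 and Ccl7 hold most of the sum on day 3, and Ccl8 holds 73.5% and 82.6% of it on day 12.

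Genes that mark the cells of interest were read beside the receptors. Of 14 macrophage markers, limma called none on day 3, 12 higher on day 6 and 11 higher on day 12, with median log2 differences of 0.25, 1.61 and 2.45, against 0.04, 0.11 and -0.07 over all genes. Their summed FPKM was 1974 to 2436 on day 6 and 5678 to 7964 on day 12, against 664 to 725 in vehicle tumors. Apoe held the largest part of the day 12 sum, with 4407 FPKM in library a and 3155 in library b. Set against day 6, limma called 7 of the 14 markers higher on day 12, Apoe among them, and 0 lower. The group values of Cd68 (67.5 to 55.0) and Siglec1 (5.40 to 2.41) fell between these days, and neither difference passed the threshold. The part of macrophage number in the day 12 sum was not tested. Of 14 classical monocyte markers, Ly6c1 was called higher and Chil3 lower on day 2, Ly6c1 alone was called higher on day 3, 7 were higher on day 6 and 9 on day 12. Ly6c2, a surface marker of classical monocytes, was at 51.6 and 57.0 FPKM on day 6, against 12.7 and 14.2 FPKM in vehicle tumors. On day 12 it was at 29.5 and 15.2 FPKM, which missed the threshold against vehicle (limma, adjusted p = 0.079) and was lower than on day 6, with a log2 difference of -1.31 (adjusted p = 0.011). Of 8 leukocyte markers, 7 were higher on day 6 and on day 12, Ptprc (CD45) by 1.54 and 1.94. The 10 nonclassical monocyte markers include genes of the patrolling cells that carry Cx3cr1. Ace, Itgal, Pou2f2 and Fcgr4 were called higher on day 6 (6.38% of all genes) and again on day 12 (24.7%). Eno3 was lower on day 12 (25.3% of all genes), and Nr4a1, Treml4, Spn, Cd300e and Adgre4 were called on neither day. Fcgr4, which encodes an Fc receptor, was at 49.3 FPKM on day 6, against 11.5 FPKM in vehicle tumors. Markers of other cells moved on the same days. All 8 T cell markers in the table and 7 of 8 NK cell markers were higher on day 6, with summed FPKM of 35.1 to 40.0 and 21.2 to 22.4, against 6.91 to 8.33 and 3.41 to 4.13 in vehicle tumors. Of 8 fibroblast markers, Dcn and Lum were higher on day 6, and on day 12 6 were higher and Pdgfra and Pdgfrb lower, with summed FPKM of 282 to 361 on day 12, against 79.0 to 81.3 in vehicle tumors. Of 8 endothelial markers, Vwf was higher on day 6 and 5 were higher on day 12 (Vwf, Tek, Cldn5, Emcn and Pecam1), with summed FPKM of 59.4 to 91.1 on day 12, against 40.3 to 47.2 in vehicle tumors. Of 8 housekeeping genes, 4 were lower and 2 higher on day 12, with a median log2 difference of -0.49. The part of these cells in the day 12 values of Ccl8, Ccl7 and Ccl12 was not tested. No defining leukocyte or macrophage marker was at 0 in vehicle tumors, and whether the receptors moved with cell number was not tested.

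Set per unit of the leukocyte markers (FPKM over the geometric mean of FPKM plus 0.1), Ccr2 was at 0.512 of its vehicle ratio on day 2 and 0.691 on day 3, and at 1.46 on day 6 and 1.49 on day 12. The 2 libraries of day 6 gave 1.24 and 1.70. Per macrophage marker level the day 12 ratio was 1.01, and per classical monocyte marker level 1.68. Per leukocyte marker level, the Cx3cr1 ratios of days 3, 6 and 12 were 0.392, 0.879 and 0.769. On day 3, 1 library was at 0.169, and the vehicle libraries were at 0.685 and 1.32. The Cx3cr1 libraries gave 0.868 and 0.943 on day 6, both within the range of the vehicle libraries, and 0.612 and 1.08 on day 12, 1 below that range and 1 within it. Per leukocyte marker level, both Ccr2 libraries of days 6 and 12 lay above both vehicle libraries, which gave 0.922 and 1.08. The same held per classical monocyte marker level. Per macrophage marker level it held on day 6 only, and the day 12 libraries gave 0.851 and 1.31, against 0.907 and 1.09 in vehicle tumors. None of these ratios was tested.

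**Figure D4:**
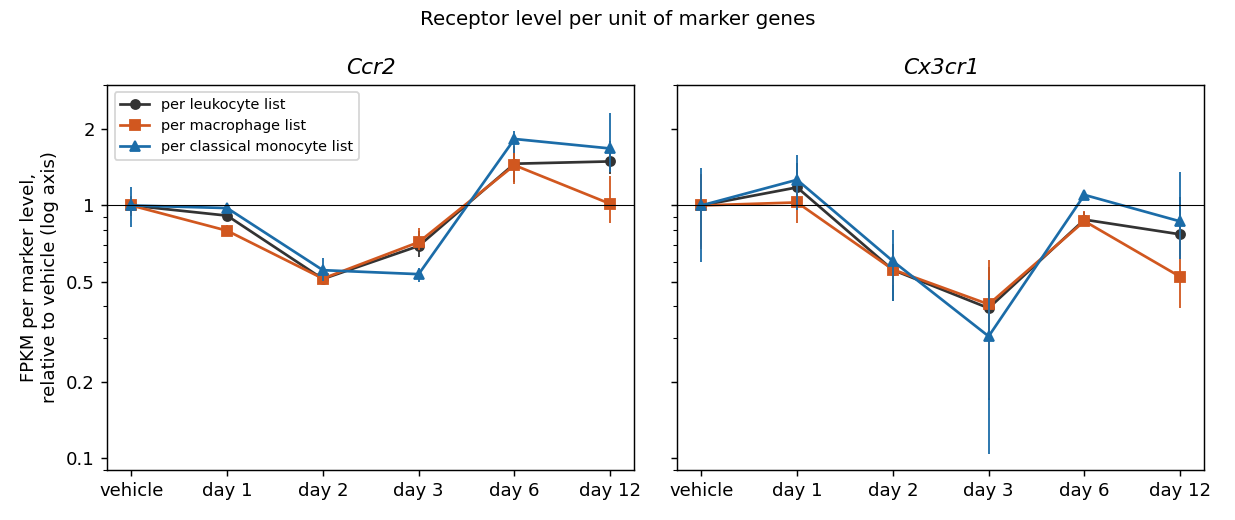
Ccr2 and Cx3cr1 FPKM divided by the level of 3 marker lists, relative to vehicle (log axis). Points use the authors' group values and vertical lines span the 2 libraries. Ccr2 lay at 0.512 of its vehicle ratio per leukocyte marker on day 2 and at 1.46 on day 6.

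The other CC chemokines were read the same way. Of 15 other CC chemokine ligands, 12 were tested, and the higher calls of days 2, 3, 6 and 12 numbered 1, 3, 7 and 11, with median log2 differences of 0.23, 0.70, 1.43 and 2.74. Ccl5, a chemokine of T cells and monocytes, was the day 2 call and, with Ccl4 and Ccl9, 1 of the 3 day 3 calls. It was at 55.7 and 71.7 FPKM on day 2, against 24.7 and 25.8 FPKM in vehicle tumors. Ccl17 and Ccl11 differed most on day 12, by 6.54 and 4.61.

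The type I interferon-stimulated genes had most of their calls on day 3. The study measured several of them on these tumors, so their direction is not independent evidence. Of 13 in the list, the higher limma calls of days 2, 3, 6 and 12 numbered 4, 9, 6 and 4, with 2 lower calls on day 12 (over all genes, 24.7% were called higher and 25.3% lower on that day) and median log2 differences of 1.04, 1.19, 0.85 and 0.41. The day 2 calls were Rsad2, Ifit1, Ifit3 and Ifi44, and the day 3 calls added Isg15, Irf7, Zbp1, Usp18 and Cxcl10, a chemokine of activated T cells. On day 12 Ifit3, Irf7, Zbp1 and Cxcl10 were higher and Ifi44 and Usp18 lower. Of 11 NF-kB components and inflammatory inducers of Ccl2, none was called on days 1 to 3, 1 on day 6 (Tnf) and on day 12 Tnf, Il1a, Nfkbia and Tnfaip3 were higher and Rela lower, again beside 24.7% and 25.3% of all genes, with a median log2 difference of 1.03. Among 10 signalling and adhesion genes, Icam1, an endothelial and leukocyte adhesion molecule, was the only one called on day 3, higher by 1.17 (adjusted p = 0.047), and Icam1, Vcam1, Itgb2 and Arrb2 were higher on day 6. Of 6 monocyte growth factor and receptor genes tested, Csf2 alone was called on day 3, higher at 0.598 FPKM, against 0.0215 FPKM in vehicle tumors. On days 6 and 12 Csf2 and the receptor genes Csf1r, Csf2ra and Csf2rb were called higher, with a median log2 difference over the 6 genes of 1.68 on day 6 and 2.20 on day 12. Of the ligands of Csf1r, Csf1 was not called before day 12, when it was lower by 0.83 (adjusted p = 0.025), and Il34 was lower by 0.51 on day 6 and 1.14 on day 12. Ccl2 and Ccl7 were called higher on days 2, 3 and 12, with 4, 9 and 4 of the interferon-stimulated genes called higher on those days. On day 6, with 6 of the interferon-stimulated genes called higher, Ccl2 and Ccl7 differed from vehicle by 0.53 and 0.60, and neither was called. Against day 3, 6 of these 13 genes were called lower on day 6 and 0 higher, with a median log2 difference of -0.50. Over all genes, 0.608% were called lower and 4% higher in that comparison. The differences of Ccl2 and Ccl7 between these 2 days were -1.14 and -0.85. The part of interferon in the levels of Ccl2 and Ccl7 was not tested.

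Around Ccl2, 25 rows of the table start within 1 Mb and 18 were tested, of which 14 are none of the 7 genes. Of these 14, 5 were called higher on day 12 (Ccl11, Ccl1, Rffl, Unc45b and Slfn5) and 3 lower (Lig3, Nle1 and Slfn9), beside 24.7% and 25.3% of all genes, and 1, Slfn5, was called higher on day 3. Ccl11, an eosinophil chemokine, was at 14.4 FPKM on day 12, against 0.570 FPKM in vehicle tumors, and Ccl1 at 0.801 FPKM on day 12, against 0.0881 FPKM in vehicle tumors.

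Pearson r of log2(FPKM + 0.1) over the 6 group values was 0.93 between Ccr2 and Cx3cr1, 0.88 between Ccl2 and Cx3cl1, 0.88 between Ccl7 and Ccl12, 0.85 between Ccl8 and Ccl12, and 0.11 between Ccl2 and Ccl8. These are descriptions over 6 points that share libraries. Among 2123 other genes at 5 FPKM or more in a group and with a range of at least 1 log2 unit, those most like Ccl2 were Gbp3, Xaf1 and H2-T10 (r of 0.98, 0.97 and 0.96). Those most like Ccl7 were Ctsl, Slpi and Trim12c (0.99, 0.98 and 0.97). Lpl, Tfec and Neurl3 were most like Ccl8 (r of 0.997, 0.996 and 0.995), where 344 genes had an r above 0.95. Casp1, Ccl4 and Hist1h2bc were most like Ccl12 (0.99, 0.99 and 0.98), Sbsn, St3gal5 and Ly6c1 most like Cx3cl1 (0.95, 0.93 and 0.92), Sla, Fgr and Ptprc most like Ccr2 (0.997, 0.996 and 0.995), and Prex1, Fmnl1 and Mif4gd most like Cx3cr1 (0.98, 0.97 and 0.96). An r above 0.95 was shared by 179 genes for Ccr2, 23 for Ccl12, 7 for Ccl7, 6 for Ccl2, 4 for Cx3cr1 and 0 for Cx3cl1.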

How the data were processed

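RNA of E0771 tumors was sequenced as polyA-selected, stranded, paired-end libraries, 2 per group. Per the submitters' processing notes, TopHat2, the mm9 build, featureCounts for read numbers and edgeR for group comparisons were used, and their versions were not given in the sources used here. In the deposited table there is 1 FPKM value per gene and group, made by the authors from the group's 2 libraries. Its other columns hold the authors' own ratios, fold changes and p-values, which were neither used nor compared. Samples were grouped by title, also the day 1 library whose treatment entry conflicts with it.

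Each FPKM value was written as the mean of 2 library values, whole reads over library total and gene length. Library totals came from genes with 1 transcript at 1 read, and reads and length from the whole solution shared by all 6 groups, with annotated lengths tried first and then lengths up to 30000. Of 24197 entries, 20183 were resolved, 4011 were at 0 in every group, 3 were not resolved and 0 had more than 1 solution at the length found; the recomputed FPKM deviated from the deposited value by at most 5.5e-11. In simulated data, 587 of 587 genes had all 12 library FPKM right, 581 with exact reads and length. Which library is which pool is not known. Recovered reads sum to 8413178 to 21058393 per library, and recovered reads carry counting error besides the spread between pools. The p-values rest on both, over all 12 libraries in 1 fit, and do not measure the spread between single tumors.

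The FPKM ratio to vehicle (plus 0.1 FPKM) was planned with no test. The limma test on recovered reads, and all its alternatives, were chosen after seeing the data: log2 CPM from the recovered total (0.5 reads added), genes with 10 or more reads in at least 2 libraries, trended variance, all 12 libraries in 1 fit, and Benjamini-Hochberg adjustment over 14484 genes with a threshold of 0.05. On simulated counts of 14250 genes for day 3 against vehicle, it called 88 of 100 genes changed by 1 log2 unit, 99 of 100 changed by 2 and 8 unchanged genes. The simulation gave all libraries the same spread. Between the 2 real libraries, the median absolute log2 difference ran from 0.078 on day 3 to 0.32 on day 12 (rows with 1000 or more reads). The simulated rates therefore need not hold for these data.

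The members and lists were chosen with earlier results of these data known. Besides the members, the text names up to 4 genes per list (those with the highest vehicle level or the largest difference), others where a count of 5 or fewer is spelled out, genes within 1 Mb of Ccl2, and the 3 genes most like each member; genes outside that rule (Adam10, Adam17, Ly6c1, Chil3, Ptprc, Icam1, Tnf and Csf1 among them) were named after their values were seen. Older symbols were matched through RefSeq; Trac, Trbc1 and Ly6g were not matched. The counts over the list of other receptors are not reported here. Promoter windows are from RefSeq (GRCm38.p6), held for 5 of 7 genes. Work was done in Python 3.11.15 (numpy 2.4.6, pandas 2.3.3, numba 0.67.0, matplotlib 3.10.9) and R 4.3.3 (limma 3.58.1).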

Additional observations from a re-analysis of the deposited data

Results flagged for a closer look

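The difference between time points was itself tested for each of the 7 genes with limma, as day 6 over day 3 and day 12 over day 6, and 9 of these 14 differences had an adjusted p under 0.05. Day 6 over day 3, the log2 difference was -1.14 for Ccl2 (adjusted p = 0.0094), -0.85 for Ccl7 (0.026) and -1.39 for Cx3cl1 (0.0064), with both day 6 libraries below both day 3 libraries in each. It was 1.32 for Ccl8 (0.017), 2.31 for Ccr2 (0.0026) and 2.78 for Cx3cr1 (0.035), with both day 6 libraries above both day 3 libraries in each. Day 12 over day 6, it was 2.12 for Ccl8 (0.0017), 1.06 for Ccl7 (0.0041) and 0.53 for Ccl12 (0.043), with both day 12 libraries above both day 6 libraries. Mice of day 12 were 12 weeks old and those of day 6 were 11 weeks old, and adipocyte and neutrophil genes differed between the 2 day 12 libraries, so age and tissue makeup cannot be told apart from the second dose.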

How the results depend on the processing

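No member difference past the limma threshold changed sign under the alternatives run. Of 882 recomputed limma differences of the members, 13 had another sign, 0 of them past the threshold. No paired analysis was possible because the deposited values do not say which of the 2 recovered libraries of a group is which pool, so the replicate block was not run. Recentring on the median log2 FPKM ratio of a day (0.06, -0.03, 0.02, 0.04 and -0.21 on days 1, 2, 3, 6 and 12) gave log2 ratios on day 12 of 1.83 for Ccl7, 1.501 for Ccl12 and 0.70 for Cx3cl1. With a pseudocount of 1 FPKM, the Cx3cl1 log2 ratio was 0.46, 0.87, 1.15, 0.28 and 0.24 on days 1, 2, 3, 6 and 12, and with 0.01 it was 0.94 on day 1. Above 1.5-fold, higher genes numbered 1 on day 1, 5 on day 3 and 5 on day 6, and above 3-fold 0 were higher on day 2, 0 lower on day 2 and 3 higher on day 12. The 1 gene lower on day 2, Ccr2, was also lost (0) with the pseudocount of 1 and with a minimum of 5 FPKM. The share of all genes past 2-fold was 1.57% and 2.40% on days 1 and 2 with no minimum FPKM and 0.214% and 0.690% with a minimum of 5 FPKM, and with the pseudocount of 1 it was 0.218%, 0.498%, 0.884%, 4.15% and 16.5% on days 1, 2, 3, 6 and 12. Per macrophage marker level, the Ccr2 ratio was 0.795 on day 1 and 1.01 on day 12, and per classical monocyte marker level it was 0.977, 0.554, 0.535 and 1.83 on days 1, 2, 3 and 6, and that of Cx3cr1 was 1.10 on day 6.

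In the limma fits on recovered reads, fitting only the 2 groups compared left residual variance to 2 groups of 2 libraries. Day 2 log2 differences of 1.22 for Ccl2, 1.12 for Ccl7 and 1.63 for Cx3cl1 then missed the threshold, as did 0.74 for Ccl2 and 0.60 for Cx3cl1 on day 12 and, for day 12 over day 6, 2.12 for Ccl8, 1.06 for Ccl7 and 0.53 for Ccl12. Those of Ccl7 on day 6 (0.60) and Cx3cr1 on day 12 (1.52) then passed. The members called higher came to 0 on day 2 and 0 for day 12 over day 6. All genes called came to 0 higher and 2 lower on day 2, 26 lower on day 3, 114 lower on day 6, 1304 lower on day 12, 2363 higher and 1096 lower for day 6 over day 3, and 13 higher and 0 lower for day 12 over day 6. With median-ratio scaling Ccl7 missed on day 2 (1.14), Ccr2 passed on day 2 (-1.08), which gave 1 member called lower, and Ccr2 passed for day 12 over day 6 (0.56). That scaling called 33 genes higher on day 2, and 28, 144 and 134 lower on day 3, on day 6 and for day 6 over day 3. With voom weights Cx3cl1 missed on day 12 (0.61), Cx3cr1 passed (1.49) and 30 genes were called higher on day 2. With a minimum of 1 read Ccl7 missed on day 2 (1.12) and Cx3cr1 for day 6 over day 3 (2.78), with 6 genes lower on day 2 and 58 lower for day 6 over day 3. With a minimum of 50 reads 34 genes were higher on day 2. The cause of these changes was not tested.

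Leaving out a library was run for the limma differences and counts, not for the FPKM ratios, shares and marker ratios. Leaving out each of the 12 recovered libraries in turn, the log2 difference on day 2 ran between 1.04 and 1.40 for Ccl2, 0.87 and 1.36 for Ccl7, and 1.46 and 1.79 for Cx3cl1. On day 3 it ran between 1.58 and 1.75 for Ccl2, 1.32 and 1.58 for Ccl7, 0.62 and 1.06 for Ccl12, and 1.88 and 2.15 for Cx3cl1. On day 6 it ran between 0.47 and 0.74 for Ccl7 and 0.68 and 0.95 for Ccl12, and on day 12 between 0.51 and 0.98 for Ccl2, 0.50 and 0.71 for Cx3cl1, and 0.86 and 2.19 for Cx3cr1. Day 6 over day 3 it ran between -1.25 and -1.02 for Ccl2, -0.98 and -0.71 for Ccl7, 1.03 and 1.61 for Ccl8, -1.52 and -1.25 for Cx3cl1, and 1.67 and 3.89 for Cx3cr1, and day 12 over day 6 between 0.45 and 0.62 for Ccl12. Members called higher numbered 0 to 3 on day 2, 0 to 4 on day 3 and 1 to 3 for day 6 over day 3, where those called lower numbered 0 to 3. All genes called lower numbered 0 to 4 on day 1, 0 to 19 on day 2, 4 to 43 on day 3, 4 to 159 on day 6 and 1865 to 4536 on day 12. All genes called higher numbered 0 to 83 on day 2, 4 to 196 on day 3 and 186 to 1285 on day 6. Day 6 over day 3 gave 18 to 842 higher and 1 to 198 lower, and day 12 over day 6 gave 586 to 2612 higher and 676 to 4837 lower. Of the 882 differences, 778 kept their direction and side of the threshold. Depth was lowest in library b of day 12, where Cx3cl1 had 56 reads, the fewest of the members there, and the fewest reads of any member were the 18 of Cx3cr1 in day 3 library b, whose depth was not low.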
